A study of Mus musculus with 10 samples.

Results

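Markers of β cell maturity and of functional differences among β cells were examined in mouse pancreatic islets with and without the lipid droplet protein FIT2 in β cells. They are secreted proteins, surface proteins and other identity genes of β cells, and transcription factors were not among them. The 10 names chosen led to 9 genes of the 47340 in the table, since Fltp is an earlier name of Cfap126 and had no entry of its own. All 9 were among the 13065 genes that were tested.

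RNASeq was performed on islets of 5 floxed control (FL) and 5 βFIT2KO (KO) mice aged 12 wk, male by the study's methods, with 1 library per mouse and islets kept in culture overnight before RNA was taken. Both groups carry loxP sites around the FIT2 gene (Fitm2), and in KO mice the rat insulin promoter also drives Cre recombinase, from the line B6.Cg-Tg(Ins2-cre)25Mgn/J. The sample titles call the controls Flox, while their genotype label reads wild type. Libraries with the Cre transgene and an intact Fitm2 gene were not analysed here. The loss of FIT2 and any effect of the transgene as a whole thus cannot be told apart.

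The β cells of newborn mice release insulin poorly in response to glucose, and the genes that mark a mature β cell come on after birth. Ucn3 is the best known of these, and its peptide acts on neighbouring δ cells, which in turn restrain insulin release through somatostatin. Mature β cells also differ from one another, and Fltp (Cfap126) was introduced as a marker that separates them into subpopulations.

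Values are FPKM, a unit that scales the reads of a gene by its exon length and by the size of the library, so levels of different genes are comparable per length. Fold changes are KO against FL on the scale of log2(FPKM + 1), where changes of scarce transcripts come out too small. They come from a limma fit over all tested genes, with an adjusted p of at most 0.05 as the threshold. Fitm2 itself was at 23.3 ± 9.86 FPKM (FL) and 6.95 ± 2.36 FPKM (KO; SD, n = 5), and its log2 fold change was −1.58 (adjusted p = 0.00228 from limma). Of the 9 genes, 6 were lower in KO, 0 were higher and 3 did not pass the threshold in limma, while 7 were lower and 1 was higher at an unadjusted p under 0.05. Over all genes tested, 16.5% were lower and 9.05% were higher, and the counts of each list below are to be read beside these shares. The markers and the lists were chosen with earlier results of these data known. The shares are thus a background for the counts and not a test of them. When the libraries were rescaled by their median ratio, the 2150 lower and 1183 higher genes became 1485 lower and 1651 higher, and the same count of 6 lower was found among the markers. The median log2 fold change was −0.56 for the 9 markers and −0.06 for all genes tested. The same 6 genes had every KO value below every FL value, as did 12.5% of all genes tested. Trpm5, Ffar1, Sytl4 and Ucn3 were lower by at least 1.5-fold on this scale, as were 2.22% of all genes tested. Ucn3, at −0.60, was close to that limit and fell short of it after rescaling by median ratio (−0.53), by quantiles (−0.55) or to the same sum (−0.55), and without FL replicate 3 or 5 or KO replicate 1, 4 or 5 (−0.58 to −0.54). Nptx2 passed it with a pseudocount of 0.1 (−0.75). Whole islets were sequenced, and fewer β cells cannot be told apart from less RNA per β cell.

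**Figure D1:**
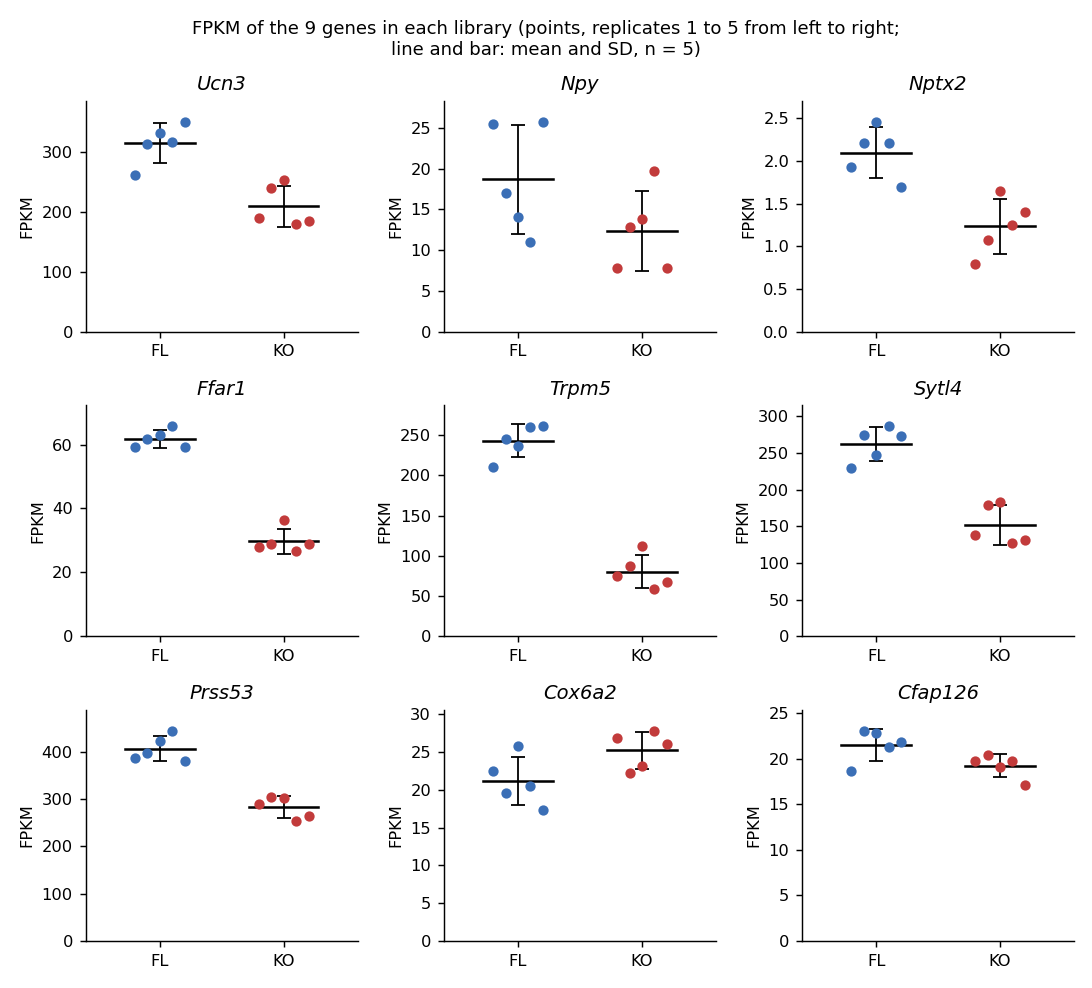
FPKM (vertical axes, linear from 0) of the 9 genes in FL and KO islets, with 1 point per library, a line at the mean and a bar for the SD (n = 5). The groups are apart for Ucn3, Nptx2, Ffar1, Trpm5, Sytl4 and Prss53 and overlap for Npy, Cox6a2 and Cfap126.

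Since 6 of the markers were lower together, the stretch of 250 bases before the transcription start was searched for short motifs. RefSeq, on build GRCm38.p6, held an entry for 7 of the 9 genes, and Cox6a2 and Nptx2 had none. The motifs were TGCTGAC, a core of the element that Maf factors bind, TAATTA, bound by homeodomain factors, CAGATG, an E box, GTTAAT, part of the HNF1 element, TATAAA, the TATA box, GTTGCC, part of the X box of RFX factors, and CCAAT, the NF-Y box. Both strands were read. Shown here are the markers with the highest FPKM among those lower in KO, 5′ to 3′ on the strand of the gene and ending at the base before the start, with motif matches in capitals.
Prss53, chr7:127890971-127891220, minus strand: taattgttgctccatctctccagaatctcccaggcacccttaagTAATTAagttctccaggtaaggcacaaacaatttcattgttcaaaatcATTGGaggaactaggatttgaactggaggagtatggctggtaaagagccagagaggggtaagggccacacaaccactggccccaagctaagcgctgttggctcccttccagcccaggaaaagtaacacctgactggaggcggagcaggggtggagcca
Ucn3, chr13:3945350-3945599, minus strand: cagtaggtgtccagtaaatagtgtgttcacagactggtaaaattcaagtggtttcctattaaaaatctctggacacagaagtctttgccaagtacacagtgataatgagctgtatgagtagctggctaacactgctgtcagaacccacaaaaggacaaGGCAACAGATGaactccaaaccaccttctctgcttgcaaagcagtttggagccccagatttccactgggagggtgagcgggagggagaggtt
Sytl4, chrX:133981813-133982062, minus strand: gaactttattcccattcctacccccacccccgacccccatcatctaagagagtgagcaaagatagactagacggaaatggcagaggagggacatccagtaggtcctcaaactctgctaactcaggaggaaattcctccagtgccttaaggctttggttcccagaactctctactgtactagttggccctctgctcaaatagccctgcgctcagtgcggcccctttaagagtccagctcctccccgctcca
Trpm5, chr7:143094643-143094892, minus strand: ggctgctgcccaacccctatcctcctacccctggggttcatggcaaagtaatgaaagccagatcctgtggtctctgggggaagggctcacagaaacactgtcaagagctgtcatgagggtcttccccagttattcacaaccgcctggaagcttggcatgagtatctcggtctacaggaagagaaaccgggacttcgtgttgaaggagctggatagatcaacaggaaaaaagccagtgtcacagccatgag

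In Ucn3 the capitals hold GTTGCC, read on the opposite strand, and CAGATG, which share 1 base and begin 92 and 87 bases before the start. In Prss53 they hold TAATTA, 206 bases before the start, and CCAAT on the opposite strand, 158 bases before it. Sytl4 and Trpm5 held none of the 7 motifs in this window. The stretch of Ffar1, not printed because it overlaps the gene as GENCODE annotates it, held TGCTGAC and CAGATG, 188 and 59 bases before the RefSeq start. Npy held CCAAT on the opposite strand, 166 bases before the start. Of the 3 RefSeq promoters of Cfap126, the one farthest upstream held CCAAT, 137 bases before its start, and the others held none of the motifs. Among all 32851 RefSeq promoters of the same length, TGCTGAC was in 3.81%, TAATTA in 4.84%, CAGATG in 14.4%, GTTAAT in 6.43%, TATAAA in 12.4%, GTTGCC in 10.4% and CCAAT in 33.8%. CAGATG was thus found in both Ucn3 and Ffar1, no motif was found in every marker with an entry that was lower in KO, and a match describes letters and not a bound site.

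Among the secreted markers, Ucn3 was strongly expressed and lower in KO. Ucn3 encodes urocortin 3, a peptide of the corticotropin-releasing hormone family that is stored with insulin. The gene lies at chr13:3940688-3945349, minus strand (GRCm38, GENCODE M21). In FL replicates 1 to 5 it was at 262, 314, 331, 317 and 350.3 FPKM. In KO replicates 1 to 5 it was at 189, 240.1, 253, 179.6 and 185 FPKM. The lowest FL library, replicate 1, lay just above the highest KO library, replicate 3, and the groups did not overlap. The means were 315 ± 33.1 FPKM (FL) and 209 ± 34.4 FPKM (KO; SD, n = 5), so that KO islets held 66.5% of the FL level. The log2 fold change was −0.60 (SE 0.11, adjusted p = 0.00328 from limma; exact two-sided permutation test, p = 0.00794, the smallest p that 252 splits allow).

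Of 11 genes of the urocortin and somatostatin systems, 3 reached the level needed for testing, with 1 lower and 1 higher. Sst, the somatostatin gene of δ cells, was the most abundant and fell by 0.29 on the log2 scale (SE 0.09, adjusted p = 0.0303). Sstr2, a somatostatin receptor, rose from 1.6 ± 0.347 to 5.0 ± 0.829 FPKM (SD, n = 5), or by 1.20 on the log2 scale (adjusted p = 3.71e-05 from limma). Sstr3, the receptor of this family with the highest FPKM, was at 105 ± 8.09 FPKM (FL) and 108 ± 11.8 FPKM (KO; SD, n = 5; adjusted p = 0.735 from limma). Crhr2, the receptor of urocortin 3, had a mean of 0.512 FPKM for FL and 0.450 FPKM for KO and was not tested. Crhr1 and Sstr5, also not tested, were lower in every KO library than in any FL library. Their means were 0.657 and 0.237 FPKM in FL and 0.0774 and 0.0468 FPKM in KO. The groups overlapped for the other untested genes of this list.

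Npy, for neuropeptide Y, is a peptide found in newborn β cells and in nerves, and it was the most variable of the markers. It lies at chr6:49822710-49829507, plus strand. FL replicates 1 to 5 held 25.5, 17.1, 14.1, 11.1 and 25.7 FPKM. KO replicates 1 to 5 held 7.85, 12.8, 13.8, 19.6 and 7.86 FPKM. The groups overlapped, with FL replicate 4 below 3 of the KO libraries and KO replicate 4 above 3 of the FL libraries. At means of 18.7 ± 6.66 and 12.4 ± 4.90 FPKM (SD, n = 5), the log2 fold change of −0.56 had an interval from −1.18 to 0.06 and did not pass (adjusted p = 0.168 from limma; exact two-sided permutation test, p = 0.127). The fold was close to that of Ucn3, but the spread was wider. Of 8 related genes, Pyy, Ppy and Dpp4 were tested, with 0 lower and 0 higher (limma, and 1 lower and 0 higher at an unadjusted p under 0.05). Ppy was the most abundant of these, and the 5 receptor genes Npy1r, Npy2r, Npy4r, Npy5r and Npy6r were all under the level for testing.

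Nptx2 was the marker with the lowest FPKM. It encodes a secreted neuronal pentraxin that gathers glutamate receptors at synapses, and lies at chr5:144545902-144557478, plus strand. The FL libraries were at 1.93, 2.21, 2.46, 2.21 and 1.69 FPKM. The KO libraries were at 0.795, 1.07, 1.64, 1.25 and 1.41 FPKM. The highest KO value, from replicate 3, lay just under the lowest FL value, from replicate 5. The mean of 2.10 ± 0.295 FPKM in FL stood at percentile 12.4 of all tested genes, and the KO mean was 1.23 ± 0.324 FPKM (SD, n = 5). The log2 fold change was −0.48 (SE 0.12, adjusted p = 0.0122 from limma; exact two-sided permutation test, p = 0.00794). On the ratio of means the KO level was 58.8% of FL, and with a pseudocount of 0.01 in place of 1 the log2 fold change was −0.79. Of 6 genes for related pentraxins and glutamate receptors, 4 were tested, 3 were lower and 0 were higher in limma, with the same counts at an unadjusted p under 0.05. Nptx1 fell by 0.47, Gria2 fell by 0.44 and Nptxr, the pentraxin receptor and the most abundant of these, fell by 0.29 on the log2 scale (adjusted p = 0.00177, 0.002 and 0.00436 from limma).

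Ffar1 had the smallest adjusted p of the 9 markers. It encodes GPR40, a receptor of long-chain fatty acids that enhances glucose-stimulated insulin release, and lies at chr7:30857390-30861564, minus strand. FL replicates were at 59.2, 61.6, 63.0, 65.7 and 59.4 FPKM. KO replicates were at 27.9, 28.9, 36.3, 26.6 and 28.9 FPKM. Each FL library was above 59 FPKM, and KO replicate 3 was the highest of KO islets by a clear gap. The mean fell from 61.8 ± 2.71 to 29.7 ± 3.8 FPKM (SD, n = 5), to 48.1% of FL. The log2 fold change was −1.04 (SE 0.08, adjusted p = 4.49e-06 from limma; exact two-sided permutation test, p = 0.00794).

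Genes around this receptor moved in both directions. Of 13 fatty acid receptors and signalling partners, 11 were tested, with 3 lower and 3 higher. Ffar3, a short-chain fatty acid receptor, fell from 7.96 ± 0.696 to 4.05 ± 0.515 FPKM (SD, n = 5; adjusted p = 4.51e-05 from limma), while Ffar2, its relative, rose from 18.2 ± 2.82 to 24.3 ± 1.68 FPKM (adjusted p = 0.0122). Prkcb, the most abundant gene of the list and a protein kinase C, fell by 0.63 on the log2 scale (adjusted p = 0.00125). Prkd1, a protein kinase D, rose by 0.31 (adjusted p = 0.0037). Of the genes for the G proteins of the class that GPR40 couples to, Gna11 fell from 67.5 ± 2.23 to 59.4 ± 2.36 FPKM (SD, n = 5; adjusted p = 0.0113 from limma), and Gnaq had a log2 fold change of −0.06 (adjusted p = 0.466).

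Trpm5 had the largest change of the 9 markers. It encodes a cation channel opened by intracellular calcium, which depolarizes taste cells and β cells, and lies at chr7:143069153-143094642, minus strand. In FL islets it was at 211, 246, 237, 260.1 and 261 FPKM. In KO islets it was at 75.1, 87.2, 112, 59.1 and 67.0 FPKM. Every KO library was far below every FL library, and KO replicate 3 was again the highest of its group. The mean fell from 243 ± 20.6 to 80.1 ± 20.6 FPKM (SD, n = 5), to 33.0% of FL. The log2 fold change was −1.62 (SE 0.15, adjusted p = 2.48e-05 from limma; exact two-sided permutation test, p = 0.00794), the 25th lowest of the 13065 genes tested.

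Of 18 genes for related channels and for the signalling of taste cells, 11 were tested, 4 were lower and 1 was higher. Itpr2 and Itpr3, which encode calcium release channels of the endoplasmic reticulum, fell by 0.97 and 0.78 on the log2 scale (adjusted p = 0.000218 and 9.04e-06 from limma). Itpr1, of the same family and the most abundant of this list, had a log2 fold change of 0.15 (adjusted p = 0.442). Trpm4, the closest relative of Trpm5, was at 4.67 ± 0.0664 FPKM (FL) and 3.85 ± 0.294 FPKM (KO; SD, n = 5; adjusted p = 0.0127 from limma). Trpm1 rose from 0.484 ± 0.149 to 4.45 ± 1.59 FPKM (adjusted p = 3.05e-05). Plcb2, Gnat3 and the taste receptors Tas1r1, Tas1r2 and Tas1r3, which work with Trpm5 in taste cells, were under the level for testing.

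Sytl4 encodes granuphilin, a protein that docks insulin granules at the plasma membrane through Rab27a and syntaxin. It lies at chrX:133936385-133981812, minus strand. FL libraries held 230.1, 275, 247, 286 and 273 FPKM. KO libraries held 139, 179.7, 184, 127 and 132 FPKM. The groups did not overlap, and KO replicates 2 and 3 were above the other KO libraries. From 262 ± 23.1 FPKM in FL, the mean fell to 152 ± 27.3 FPKM in KO (SD, n = 5), 58.0% of FL. The log2 fold change was −0.80 (SE 0.11, adjusted p = 0.000597 from limma; exact two-sided permutation test, p = 0.00794).

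Of 21 genes for related proteins and granule docking, 20 were tested, 3 were lower and 4 were higher, where 16.5% and 9.05% of all genes tested were. Rab27a was at 112 ± 3.71 FPKM (FL) and 108 ± 9.72 FPKM (KO; SD, n = 5), and its log2 fold change was −0.07 (adjusted p = 0.456 from limma). Rab3a, the most abundant of the list, had a log2 fold change of −0.17 (adjusted p = 0.106). Mlph, another Rab27a effector, fell from 4.36 ± 0.521 to 1.22 ± 0.234 FPKM (adjusted p = 5.25e-06). Stxbp2, a syntaxin-binding protein, fell by 0.26 on the log2 scale (adjusted p = 0.0295). Rph3a, an effector of small GTPases, rose from 0.0739 ± 0.0356 to 4.58 ± 1.36 FPKM, Sytl3 from 1.42 ± 0.353 to 5.11 ± 1.15 FPKM and Rab3c from 1.31 ± 0.212 to 3.05 ± 0.631 FPKM (SD, n = 5; adjusted p = 1.76e-06, 6.36e-05 and 0.000497 from limma). The fourth that was higher, Rab3d, was abundant in FL islets at 77.6 ± 4.37 FPKM and had a log2 fold change of 0.24 (adjusted p = 0.00882).

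Prss53, a serine protease gene at chr7:127885841-127890970, minus strand, had the highest FPKM of the 9 markers. It was at 388, 398, 423, 444 and 380.1 FPKM in the FL libraries. It was at 291, 305, 301, 253 and 265 FPKM in the KO libraries. The groups were well apart, and the libraries within a group were close. The mean was 407 ± 26.5 FPKM (FL) and 283 ± 22.9 FPKM (KO; SD, n = 5), which is 69.6% of FL. The log2 fold change was −0.52 (SE 0.07, adjusted p = 0.000274 from limma; exact two-sided permutation test, p = 0.00794). Of 7 other serine protease and adjacent genes, 5 were tested, with Prss16 higher (0.587 ± 0.151 to 1.66 ± 0.474 FPKM, adjusted p = 0.00248 from limma) and Vkorc1, the most abundant of them, lower by 0.20 on the log2 scale (adjusted p = 0.0207).

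Cox6a2 was the marker with a positive log2 fold change. It encodes the heart and muscle isoform of a subunit of cytochrome c oxidase, the last enzyme of the respiratory chain, and lies at chr7:128205435-128206387, minus strand. FL replicates were at 22.5, 19.6, 25.8, 20.5 and 17.3 FPKM. KO replicates were at 26.9, 22.3, 23.1, 27.8 and 26.0 FPKM. FL replicates 1 and 3 lay within the KO range, so the groups overlapped. The means were 21.1 ± 3.19 and 25.2 ± 2.41 FPKM (SD, n = 5), and the log2 fold change was 0.25, with an interval from 0.03 to 0.47 (adjusted p = 0.0895 from limma; exact two-sided permutation test, p = 0.0476). Without FL replicate 3 it was 0.32 and passed the threshold (adjusted p = 0.0292). The isoform of other tissues, Cox6a1, was at 385 ± 20.7 FPKM (FL) and 365 ± 27.0 FPKM (KO; SD, n = 5; adjusted p = 0.383 from limma). Of 15 other genes of this enzyme, 13 were tested, 2 were lower and 0 were higher in limma, with 5 lower and 0 higher at an unadjusted p under 0.05. The genes past the threshold were Cox7a1, at 3.27 ± 0.888 and 1.77 ± 0.340 FPKM (adjusted p = 0.014), and Cox8a, which fell by 0.26 on the log2 scale (adjusted p = 0.00287). Cox6b1 was the most abundant, at 687 ± 39.2 FPKM for FL and 640 ± 57.4 FPKM for KO (adjusted p = 0.276).

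Cfap126 (Fltp), a gene of cilia and of planar cell polarity, had the smallest log2 fold change of the markers. It lies at chr1:171113918-171126967, plus strand. The FL libraries held 18.6, 23.1, 22.8, 21.3 and 21.8 FPKM. The KO libraries held 19.8, 20.4, 19.0, 19.8 and 17.1 FPKM. All but FL replicate 1 were higher in FL than in any KO library. At 21.5 ± 1.77 and 19.2 ± 1.28 FPKM (SD, n = 5), the log2 fold change was −0.15, with an interval from −0.30 to −0.01 (adjusted p = 0.118 from limma; exact two-sided permutation test, p = 0.0556). Without FL replicate 1 it was −0.20 and passed (adjusted p = 0.0329). After rescaling by median ratio or by quantiles it was closer to none, at −0.09 and −0.10 (adjusted p = 0.267 and 0.216 from limma). Of 20 names of cilia and planar polarity genes, Wnt genes and RFX factors, 19 were in the table and 15 were tested. In limma 3 were lower and 0 were higher, where 16.5% and 9.05% of all genes tested were. At an unadjusted p under 0.05, 7 were lower and 1 was higher. Wnt4, a secreted Wnt protein and the most abundant of them, fell from 143 ± 14.4 to 98.6 ± 5.04 FPKM (SD, n = 5; adjusted p = 0.000327 from limma). Vangl2, a core polarity protein, fell by 0.41 and Rfx6, an islet transcription factor, fell by 0.31 on the log2 scale (adjusted p = 0.0246 and 0.00235).

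Ranked by mean FPKM in FL islets, the order was Prss53, Ucn3, Sytl4, Trpm5, Ffar1, Cfap126, Cox6a2, Npy and Nptx2. The values of Prss53 lay above those of every other marker in FL islets. Those of Ucn3 and Sytl4 overlapped, as did those of Sytl4 and Trpm5, and those of Cfap126, Cox6a2 and Npy. In KO islets, Cox6a2 stood above Cfap126 without overlap, and Trpm5 was below Sytl4 without overlap.

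The ratio of each marker to Ucn3 within a library is not changed by scaling all its values by 1 factor, and is given as a description. The log2 fold change was −0.60 for Ucn3 itself and −0.06 for the median of all genes tested. A gene with little change of its own thus rises against Ucn3. The share of all genes tested whose ratios to Ucn3 were apart was not computed. On the log2 scale, the ratio of Trpm5 to Ucn3 went from −0.37 ± 0.08 in FL to −1.41 ± 0.16 in KO, and that of Ffar1 from −2.34 ± 0.15 to −2.81 ± 0.14 (SD, n = 5), both without overlap. Cfap126 and Cox6a2 did not pass the threshold themselves. Their ratios to Ucn3 were higher in every KO library than in any FL library. These were −3.87 ± 0.09 (FL) and −3.43 ± 0.22 (KO) for Cfap126 and −3.90 ± 0.31 (FL) and −3.04 ± 0.37 (KO) for Cox6a2. The ratio of Prss53 to Ucn3 was 0.37 ± 0.17 in FL and 0.45 ± 0.15 in KO, with overlap. That of Sytl4 was −0.26 ± 0.12 in FL and −0.46 ± 0.03 in KO, where FL replicate 3 at −0.42 fell among the KO libraries, and the ratios of Npy and Nptx2 also overlapped between the groups.

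**Figure D2:**
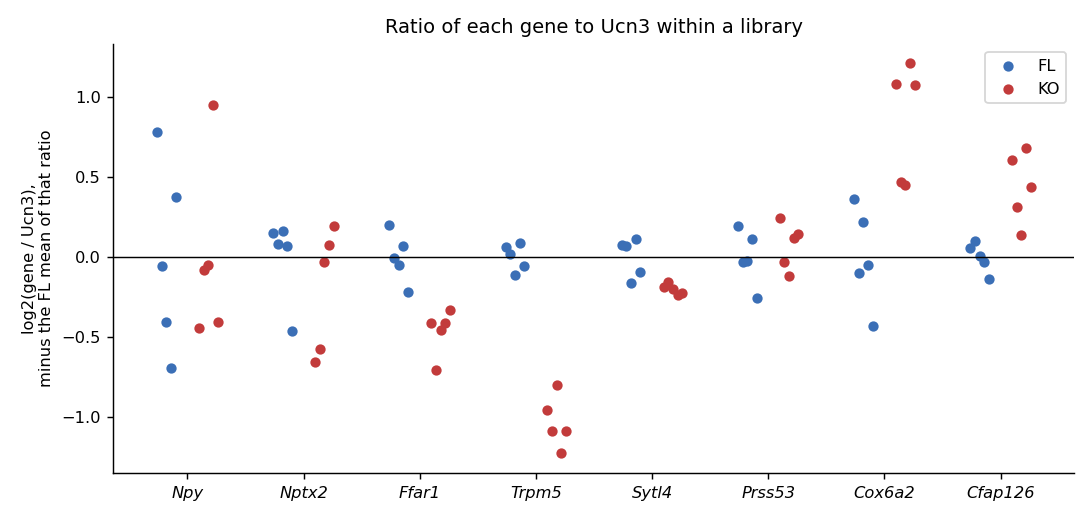
Ratio of each marker to Ucn3 within a library, as log2 minus the FL mean of that ratio (vertical axis), with 1 point per library for FL and KO. Trpm5 and Ffar1 lie below the FL libraries in every KO library, Cfap126 and Cox6a2 lie above them, and Npy, Nptx2, Sytl4 and Prss53 overlap. Ucn3 itself was lower in KO, so a gene with little change of its own rises on this scale.

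Libraries of the same group also differed in the 6 markers that were lower. KO replicate 3 was above the KO mean in 6 of 6, with a median deviation of 0.29 on the log2 scale, and KO replicate 2 in 4 of 6. KO replicates 1, 4 and 5 were above it in 1 of 6 each. Among FL libraries, replicate 1 was above the FL mean in 0 of 6, with a median deviation of −0.13, and replicate 4 in 6 of 6. The spread within a group was thus partly shared by these genes. The same counts were not made over all genes tested, so the shared spread is not shown to be particular to these markers.

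**Figure D3:**
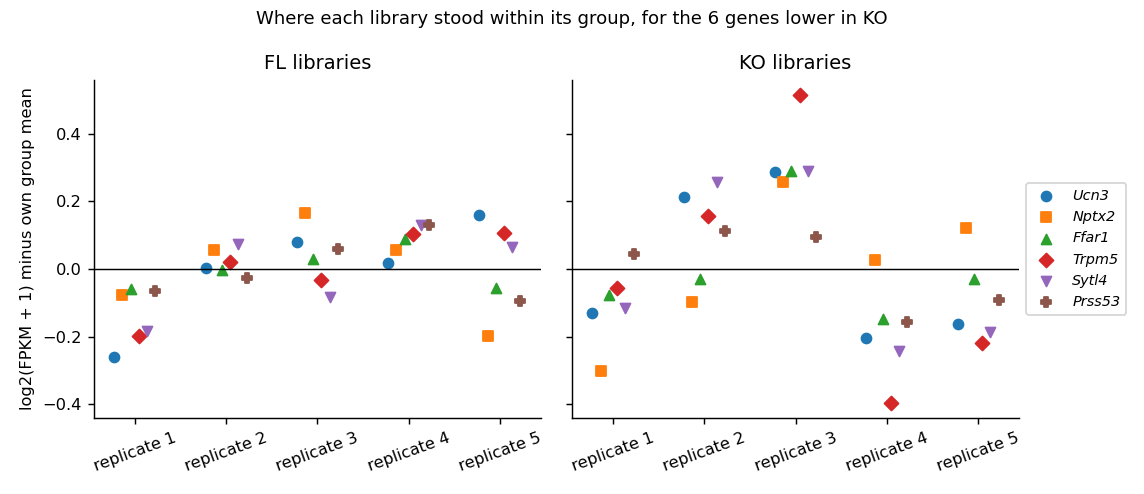
Deviation of each library from its own group mean in log2(FPKM + 1) (vertical axis) for the 6 markers lower in KO, with replicates along the horizontal axis and 1 symbol per gene. KO replicate 3 is above the line for 6 of 6 genes and FL replicate 1 is below it for 6 of 6.

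Over the 10 libraries, each marker was also set against all other tested genes by the root mean square difference of their centred log2 values, where 0 would be the same pattern. The closest pair of markers was Ucn3 and Sytl4, at 0.128. Closest to Ucn3 were Robo1, Dmpk and Pdx1, at 0.0958, 0.0968 and 0.0984. Those closest to Sytl4 were Tmem215, Tgfa and Tmem163, at 0.0645, 0.0942 and 0.0971. For Ffar1 they were Lancl3, Tmem151b and Hspa12a, at 0.0728, 0.0869 and 0.0920, and for Prss53 they were Ppat, Sort1 and Inpp5a, at 0.0492, 0.0497 and 0.0606. Trpm5 had no such close match, and Mfi2, Vsnl1 and Il1b came nearest at 0.167, 0.212 and 0.219. Nptx2 was nearest to Zfyve21 at 0.109, Cox6a2 to Nsf at 0.098 and Cfap126 to D330023K18Rik at 0.0438. Among those nearest to Npy, Gm14057 and Osbp2 were at 0.341 and 0.347.

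Chromosome 7 holds 4 of the markers, with Prss53 and Cox6a2 the nearest to each other, and their neighbours did not all move with them. Trpm5 overlaps Tssc4 on the opposite strand, and Tssc4 rose from 71.8 ± 4.10 to 90.9 ± 7.96 FPKM (SD, n = 5; adjusted p = 0.00398 from limma). Cd81, which lies 1219 bases from Trpm5, rose by 0.32 on the log2 scale (adjusted p = 0.0172). Ffar3, 1212 bases from Ffar1, fell with it, as given above. Next to Prss53, Zfp646, which overlaps it on the opposite strand, fell by 0.30, Zfp668 fell by 0.33 and Vkorc1 fell by 0.20 (adjusted p = 0.000767, 0.00455 and 0.0207 from limma). The gene model Gm21974 spans part of Prss53 on the same strand and was listed at 0 in 9 libraries and at 0.111 FPKM in KO replicate 5. Cox6a2 lies within Itgad, on the opposite strand, with means of 0.0762 (FL) and 0.0115 FPKM (KO). The tested gene nearest to Cox6a2, 9130023H24Rik, fell by 0.39 on the log2 scale (adjusted p = 0.000471 from limma). The library kit marks strand, but whether reads were counted by strand is not given in the sources used here, so reads of overlapping genes may be shared.

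**Figure D4:**
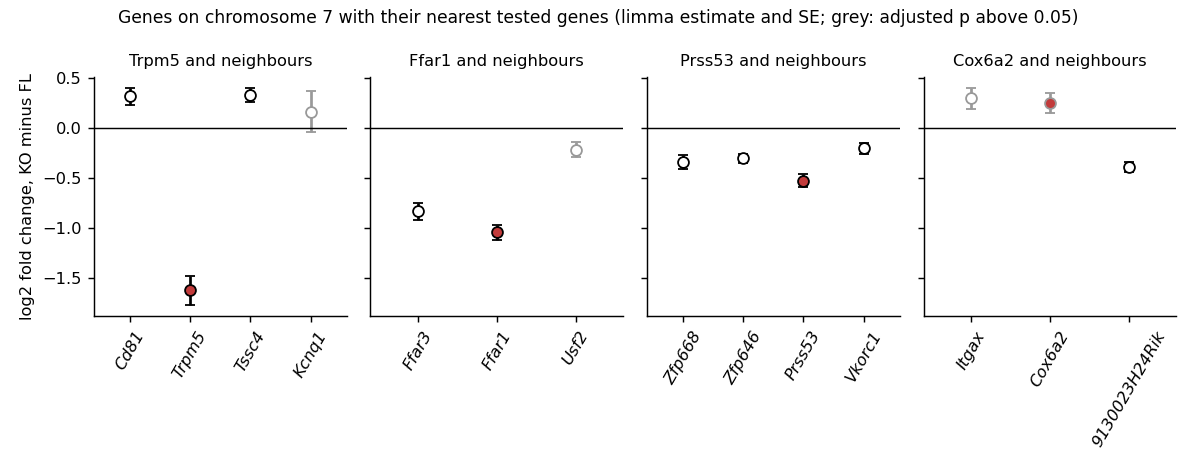
Log2 fold change of KO against FL (vertical axis, with SE) for the 4 markers on chromosome 7 (filled) and their nearest tested neighbours (open), grey where the adjusted p was above 0.05. Trpm5 lies far below Cd81 and Tssc4, which are above 0, whereas Ffar1 and Prss53 and their neighbours lie below 0.

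Other genes of β cell maturity were examined in the same fit. Of 29 names, 28 were in the table and 23 were tested, with 13 lower, 1 higher and 9 that did not pass, and a median log2 fold change of −0.39. At an unadjusted p under 0.05, 17 were lower and 2 were higher. Among all genes tested, the shares past the threshold were 16.5% lower and 9.05% higher. The largest were Nnat, which fell from 14.9 ± 9.86 to 4.43 ± 2.35 FPKM with overlap between the groups, Mafa, a transcription factor of mature β cells that fell from 253 ± 44.4 to 113 ± 39.1 FPKM, and Gjd2, the gap junction protein that couples β cells, which fell from 128 ± 9.44 to 68.1 ± 4.28 FPKM (SD, n = 5; adjusted p = 0.0279, 0.00372 and 3.56e-06 from limma). Ppp1r1a, a phosphatase inhibitor, Slc30a8, the zinc transporter of insulin granules, and Gipr, the receptor of an incretin, fell by 0.88, 0.76 and 0.75 on the log2 scale (adjusted p = 0.000353, 4.07e-05 and 0.000563). The gene that rose was Dlk1, by 0.42 (adjusted p = 0.0467). Pcsk1, the prohormone convertase gene, had a log2 fold change of 0.25 (adjusted p = 0.091). Ins1, Ins2, Iapp and Six3 were listed at 0 in all 10 libraries, as was the glucagon gene Gcg, and nothing can be said of them here.

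Genes of immature or altered β cells were examined in the same way. Of 19 such genes, 12 were tested, 0 were lower and 2 were higher in limma, and 10 did not pass. At an unadjusted p under 0.05, 1 was lower and 3 were higher, and the log2 fold change was below 0 for 3 of the 12, with a median of 0.08. Oat rose from 5.97 ± 0.704 to 12.4 ± 1.34 FPKM and Cd81 from 75.2 ± 7.96 to 94.1 ± 8.8 FPKM (SD, n = 5; adjusted p = 2.78e-05 and 0.0172 from limma). Aldh1a3, a marker of dedifferentiated β cells, had a mean of 0.650 FPKM for FL and 0.858 FPKM for KO and was not tested.

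**Figure D5:**
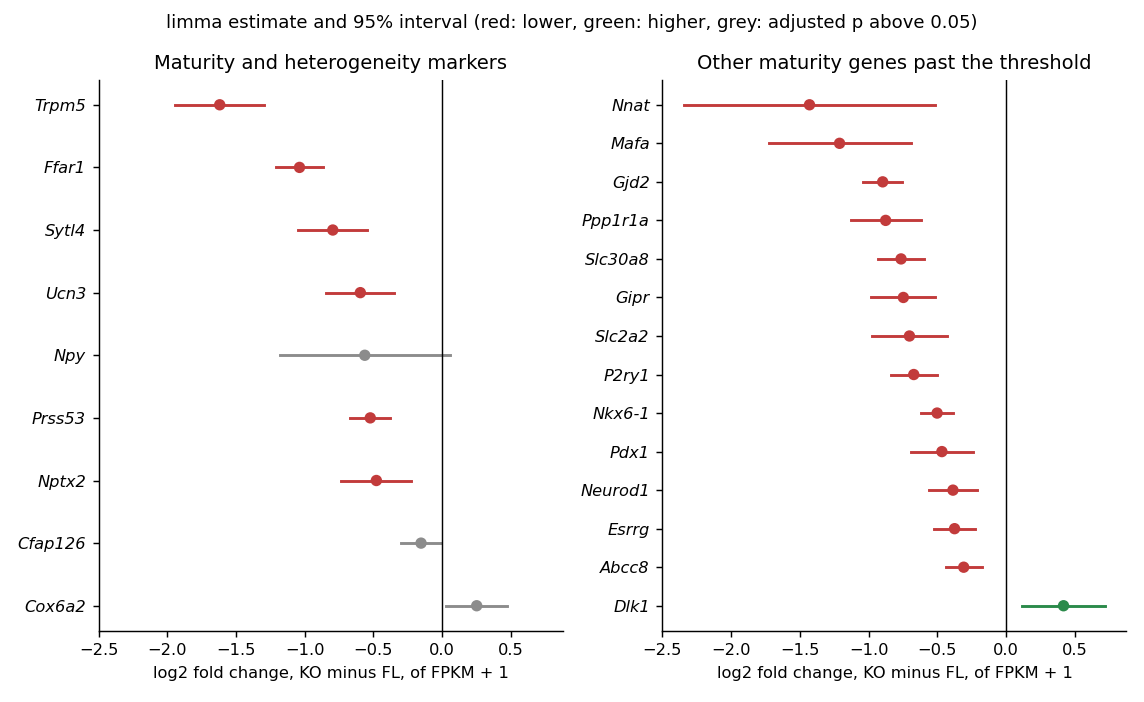
Log2 fold change of KO against FL with its 95% interval (horizontal axis) for the 9 markers, left, and the other genes of β cell maturity and heterogeneity that passed the threshold, right. Red stands for lower (6 and 13 genes), green for higher (0 and 1) and grey, among the 9 markers, for an adjusted p above 0.05.

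Markers of several other cell types differed between the groups. Of 9 β cell markers, 6 were tested and 5 were lower, and these 6 are also among the other maturity genes above. Of 5 endothelial markers 4 were higher, with summed levels of 165 to 187 FPKM in FL and 202 to 248 FPKM in KO. Stromal markers were higher in 5 of the 5 tested, with sums of 12.1 to 20.6 and 24.4 to 33.7 FPKM. Acta2 had a mean of 0.484 FPKM for FL and 0.624 FPKM for KO and was not tested. Immune markers were higher in 2 of 4 tested, with sums of 46.9 to 65.1 and 85.7 to 96.9 FPKM. Acinar markers were called in 0 of 8 by limma, also at an unadjusted p under 0.05, but their sums spread from 4380 to 11721 FPKM in FL and from 2893 to 21581 FPKM in KO. Of 11 genes known to be induced in islets by lactogenic hormones, 10 were higher, among them Lrrc55, from 0.0488 ± 0.0485 to 16.0 ± 4.73 FPKM, and Tph1, from 0.0487 ± 0.0490 to 11.8 ± 2.65 FPKM (SD, n = 5; adjusted p = 3.16e-08 and 7.75e-09 from limma). These lactogen-induced genes are not markers of a cell type, and for them too the transgene and the loss of FIT2 cannot be told apart. Among the other endocrine cells, 1 of 6 α cell markers (Irx1) and 1 of 4 δ cell markers (Sst) were lower and 0 were higher by limma. At an unadjusted p under 0.05, 2 α cell markers were lower and 1 was higher, and 2 δ cell markers were lower and 0 were higher. Of 3 genes listed for pancreatic polypeptide cells, 1 was lower (Pax6) and 1 was higher (Sertm1). The hormone gene Ppy did not pass (adjusted p = 0.603 from limma). Of 3 duct markers 1 was higher, and of 2 glial and neuronal markers 0 were called by limma, with 1 lower and 0 higher at an unadjusted p under 0.05. The part of these differences in the lower levels of the markers was not tested.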

How the data were processed

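Islet RNA of 5 FL and 5 KO mice was sequenced, and groups and replicate numbers were taken from the sample titles. The authors deposited 1 table of FPKM for 47340 genes with a column per library, of which 22548 were at 0 in all 10 libraries. The submitters' processing notes name STAR 2.5.2a, Cuffnorm 2.2.1 and the builds mm10 and GRCm38, without their roles. How the library sizes behind these FPKM were set is not given in the sources used here. FPKM summed to between 646233 and 675470 in FL and between 627084 and 653292 in KO. Read numbers are unknown, so no counting error was computed. Steps between values under 0.3 FPKM gave approximate depths of 1.41 to 2.41 in the other FL libraries and 1.51 to 2.05 in KO, relative to FL replicate 1. These rest on the most frequent ratio of low values to those of FL replicate 1, which 13.6 to 17.1% of the low genes shared within 0.02 on the log2 scale, and are rough.

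The main comparison used lmFit and eBayes with a trend (limma 3.58.1, R 4.3.3) on log2(FPKM + 1), for genes whose mean reached 1 FPKM in either group. The study's false discovery rate threshold of 0.05 and its level of 1 FPKM were kept, and p-values were adjusted over 13065 genes by the Benjamini-Hochberg method. For each of the 9 genes, mean log2 values were compared by exact two-sided permutation over 252 splits. Python 3.11.15 was used with numpy 2.4.6, pandas 2.3.3 and, for plots, matplotlib 3.10.9. Positions are from GENCODE M21, and promoters are from RefSeq. The 9 genes and the lists were chosen with earlier results of these data known. The genes named were to be those of each list past the threshold with the largest log2 fold changes and, for the partner lists, the most abundant gene. Some of these were left out for length, and a few others were named after their values were seen. Some genes of the lists are not reported here, though they are part of the counts. The alternatives were other pseudocounts, filters, scalings and limma settings, a replicate block and leaving out each library.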

Additional observations from a re-analysis of the deposited data

Results flagged for a closer look

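Of 18 sets of 5 values (9 genes in 2 groups), 1 held a library far from the others, where chance would give about 0.9. This was Ffar1 in KO islets, with replicate 3 at 36.3 FPKM and the other KO libraries between 26.6 and 28.9 FPKM. The gap to the nearest library was 0.7599 of the whole range, above the Dixon limit of 0.71 for 5 values. The same library was above the KO mean for 6 of the 6 markers that were lower. The cause was not tested.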

How the results depend on the processing

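Across 21 alternatives, Ucn3, Trpm5, Sytl4, Ffar1 and Prss53 stayed lower and past the threshold in limma, and Nptx2 did in the 20 that tested it. Of the 9 markers 6 were lower in each alternative, except 5 with a filter of 5 FPKM, which does not test Nptx2, and 7 without FL replicate 1. When 1.5-fold or more was also required, 4 markers and 8 of the other maturity genes were lower, in place of 6 and 13. Leaving out FL replicate 1 or FL replicate 3 brought Cfap126 (−0.20) or Cox6a2 (0.32) past the threshold, and the cause was not tested. No marker changed direction. Npy ranged from −0.74 to −0.43 (adjusted p from 0.0773 to 0.32) and never passed. Over all genes, 2150 lower and 1183 higher became 1485 and 1651 after median-ratio rescaling. With the replicate number as a block, 6 markers and 13 other maturity genes were lower, and 1494 genes were lower and 874 higher over all. Same-numbered FL and KO libraries had correlations of deviations from −0.102 to 0.003, and 0 of 10 libraries correlated best with their own number. No deviation shared by number was thus seen. This cannot show whether equal numbers mark littermates or mice handled together. Nptx2, near 2 FPKM, is the marker whose reads are likely fewest, and its depth is unknown.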
